A study of Homo sapiens with 6 samples.

Results

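The genes described here were 6 cystatins (CST1, CST2, CST3, CST4, CST6 and CSTB) and 4 cathepsins (CTSB, CTSD, CTSL and CTSZ). They were read by 19 of the 54675 probe sets of a one-colour Affymetrix human array, found by the gene symbol that the platform annotation gives each probe set. None of the 19 named several genes, all 19 passed the filter on dim values, and each gene had at least 1. The 10 genes were chosen on their measured signals in the same comparison that is described here. Their differences between the groups are therefore given as a description, without a test.

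The arrays came from 6 RNA samples in groups of 3. The parental samples were untransfected MDA-MB-231 cells, an established human breast cancer line of mesenchymal-like cells without the oestrogen receptor, grown in monolayer. The other samples were labelled 231wCFry, a single stable MDA-MB-231 clone that carries a cDNA for the wild-type Fry protein of the Copenhagen (Cop) rat in a plasmid, went through puromycin selection and was picked for its Fry level. A clone with an empty vector is not among the samples, so effects of Fry, of selection and of picking 1 clone cannot be told apart. The samples of each line differed in passage number. No label ties them to separately kept cultures. The p-values below therefore measure only the spread between these samples, which includes passage and may otherwise be technical.

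The labels were checked against marker genes before the results. The arrays labelled Fry clone did not read as the parental line does. Of 7 tested epithelial markers 6 were lower in them and none higher, and 8 such markers summed to a signal of 8603 to 9127 in parental RNA and 1651 to 1752 in the other RNA. Of 5 tested mesenchymal markers 2 were higher and 2 lower, among them CDH2, N-cadherin, which rose from 43.1 ± 2.84 (SD, n = 3) to 1849 ± 266, and CDH11, cadherin 11, which fell from 774 ± 21.1 to 0.23 ± 0.058. They summed to 6920 to 7404 and 7620 to 9170. Of 7 tested melanocyte and neural crest markers 6 were higher and none lower, with a summed signal of 372 to 445 against 4349 to 4767. Most of the second sum came from S100B (0.70 ± 0.87 to 1770 ± 93.3), SOX10 (0.43 ± 0.32 to 1395 ± 22.3) and MITF (399 ± 39.8 to 1129 ± 65.3). MLANA and TYR rose but stayed dim (35.5 ± 25.2 and 25.5 ± 8.61 in the samples labelled Fry clone). PMEL (10.8 ± 5.64 and 5.17 ± 2.67, SD, n = 3), the melanosome matrix protein, did not pass among the 7 tested. CDKN2A, an inhibitor of cyclin-dependent kinases whose locus is known to be deleted in MDA-MB-231, read 0.53 ± 0.49 (SD, n = 3) on the parental arrays and 874 ± 56.3 on the others. CDKN2A was picked after its values were seen. A difference of cell identity and a difference made by Fry can therefore not be told apart in any value below, and the second group is called the samples labelled Fry clone. Human FRY read at most 9.8 on any array. Macrophages are rich in cathepsins, and 8 macrophage markers summed to 89.2 to 109.7 (parental) and 34.0 to 50.6. Of 4 tested, CSF1R, the receptor for colony-stimulating factor 1 (59.2 ± 8.52 to 5.27 ± 2.80), and CD14 (15.2 ± 2.55 to 1.23 ± 1.53) were lower, and LYZ, lysozyme, was higher (8.53 ± 3.35 to 18.7 ± 4.83). The defining marker PTPRC, CD45, read 4.63 ± 1.21 and 2.5 ± 1.31 and was too dim to be tested. RNA quality also moved with the groups: the GAPDH controls at the 3' end read 1.36 to 1.39 times those at the 5' end in parental RNA and 1.24 to 1.33 times in the other RNA. Its part in the results was not tested.

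Cathepsins are proteases of the lysosome. CTSB, CTSL and CTSZ are cysteine proteases, made as inactive precursors that acid conditions or other proteases mature, and CTSD is an aspartic protease. Tumour cells can also secrete them, and outside the cell they cut matrix proteins. Cystatins are small proteins that plug the active site of cysteine cathepsins. The stefins CSTA and CSTB stay in the cell, while the type 2 cystatins CST1, CST2, CST3, CST4 and CST6 carry a signal peptide and are secreted. Cystatins do not inhibit the aspartic protease CTSD.

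Signals are MAS5 values without a physical unit, scaled so that all arrays share a trimmed mean. Differences are of log2(signal + 16), the samples labelled Fry clone minus the parental samples, with the standard error (SE) of a limma fit across all probe sets that passed the filter. On this scale the change of dim genes is understated. Different probe sets bind with different strength, so levels were compared within a probe set only. In RNA from whole cultures, fewer cells that make a transcript and less transcript per cell cannot be told apart.

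All 10 cystatin probe sets were lower on every array labelled Fry clone than on any parental array. Among the 9 cathepsin probe sets this held for 5, and for the other 4 the groups overlapped. That makes 15 of 19 probe sets whose groups did not overlap, each lower in the samples labelled Fry clone. Over all 32771 probe sets that passed the filter the groups did not overlap in 67.4%, and did so with the lower values in the samples labelled Fry clone in 34.7%. Because the genes were chosen on this contrast, nothing is read from the share among them. The median log2 difference over the 19 probe sets, in which some genes have several, was -0.999. Over all 13630 genes tested, each by its brightest probe set, it was 0.0082. For the same reason nothing is read from the gap between these medians.

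**Figure D1:**
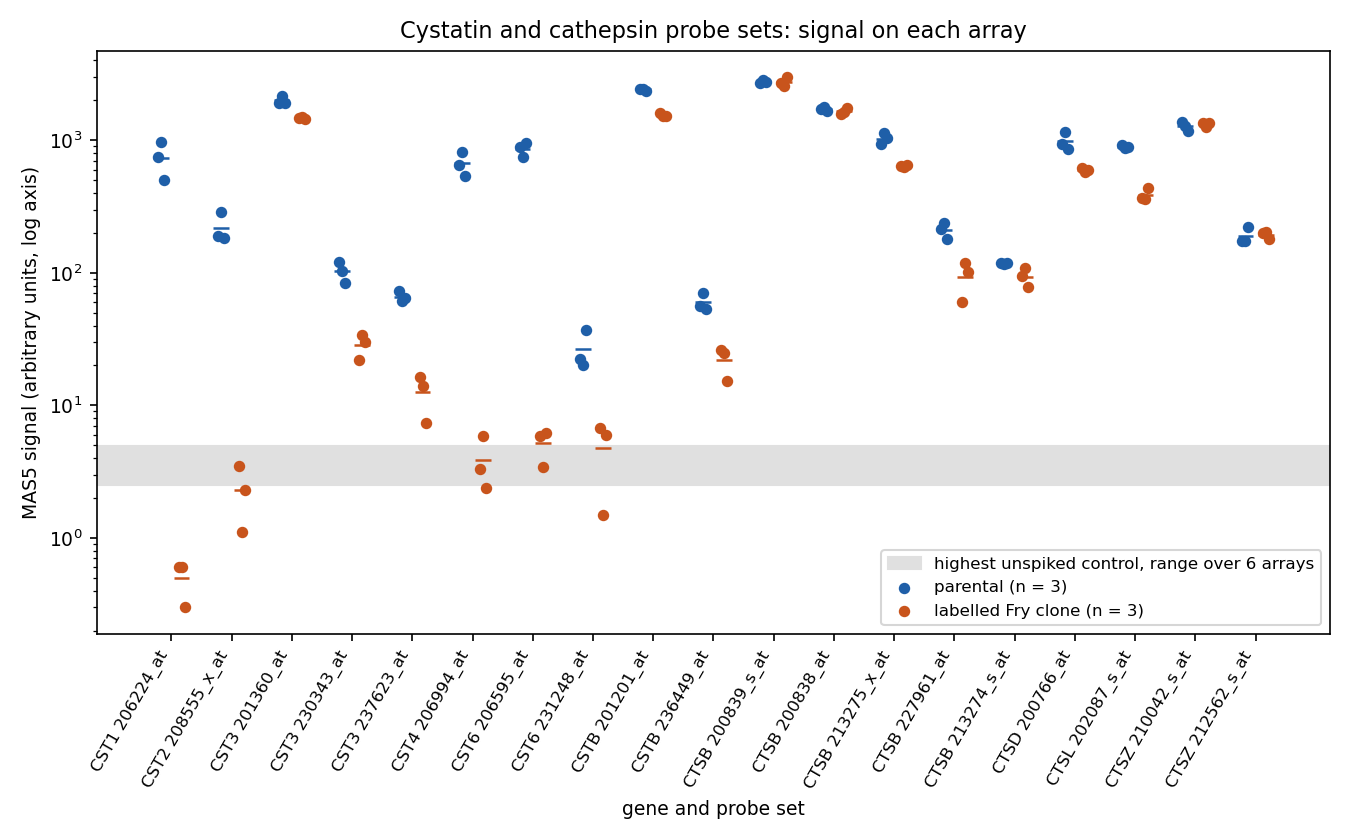
MAS5 signal (arbitrary units, log axis) of each of the 19 probe sets on each of the 6 arrays, with blue points for the 3 parental samples, orange points for the 3 samples labelled Fry clone, and short lines at the group means. The grey band spans the highest unspiked bacterial control of each array (2.5 to 4.9). CST1, CST2, CST4 and CST6 drop to the region of the band, while the bright CTSB probe sets and CTSZ stay level.

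The secreted cystatins CST1, CST4 and CST2 differed most, together with CST6. CST1, cystatin SN, read 743.9, 973.5 and 500.4 on the parental arrays and 0.6, 0.6 and 0.3 on those labelled Fry clone (probe set 206224_at). The parental readings are high and spread widely, and the 3 others all lie below the highest unspiked bacterial control of their array, so the transcript was not above background there. Its log2 difference was -5.47 (SE 0.20). Against that control level CST1 was at least 202.5-fold lower, and against the median probe set of each array (10.7 to 11.2), a higher floor, at least 65.6-fold lower.

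CST4, cystatin S, read 648.6, 820.3 and 541.0 on the parental arrays and 3.3, 5.9 and 2.4 on the others (206994_at). The groups are far apart, and 2 of the 3 low readings lie at or below the control level of their array. The log2 difference was -5.09 (SE 0.15). CST2, cystatin SA, read 191.0, 285.0 and 182.8 against 3.5, 1.1 and 2.3 (208555_x_at), a log2 difference of -3.66 (SE 0.15). Again 2 of 3 low readings were at or below the control level, and the parental level was clear of it on every array. CST1, CST2 and CST4 encode close paralogs, and the CST2 probe set is of a type (_x_at) that can bind related transcripts, so how much of the CST2 signal comes from CST1 or CST4 is uncertain.

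CST6, cystatin E/M, an inhibitor of legumain as well as of cathepsins, has been studied as a gene that is silenced in breast tumours. Its bright probe set (206595_at) read 883.4, 752.8 and 947.2 on the parental arrays and 5.9, 3.4 and 6.2 on those labelled Fry clone. No array of the first group came near any array of the second, and the low readings lay above the control level of their arrays but below the median probe set. The log2 difference was -5.37 (SE 0.11). A second, dim CST6 probe set (231248_at) ran the same way, from 26.5 ± 8.90 (SD, n = 3) to 4.77 ± 2.86, a log2 difference of -1.02 (SE 0.16).

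CST3 and CSTB are the cystatins that most tissues make, and both remained well above background in both groups. CST3, cystatin C, read 1914.0, 2164.7 and 1918.8 on the parental arrays and 1472.2, 1508.1 and 1441.7 on the others (201360_at). The samples labelled Fry clone thus held 73.7% of the parental mean, with a log2 difference of -0.43 (SE 0.09). The other CST3 probe sets were dim and differed more. 230343_at went from 103 ± 18.7 (SD, n = 3) to 28.6 ± 6.23 (log2 difference -1.41, SE 0.14). 237623_at went from 72.3, 61.2 and 64.8 to 16.5, 13.9 and 7.3 (-1.53, SE 0.13). The 3 CST3 probe sets share the direction and not the size.

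CSTB, stefin B, an inhibitor of cathepsins inside the cell, read 2445.8, 2454.3 and 2349.2 on the parental arrays and 1592.4, 1514.8 and 1513.6 on the others (201201_at). Readings within each group lay close together, and the second group stood at 63.7% of the first. The log2 difference was -0.64 (SE 0.08). The dim CSTB probe set 236449_at read 55.9, 71.0 and 53.1 against 26.3, 25.0 and 15.2, a log2 difference of -1.0 (SE 0.14).

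Among the proteases, CTSL differed most on a bright probe set. CTSL, an endopeptidase that also acts outside the lysosome, read 923.6, 877.8 and 884.4 on the parental arrays and 365.3, 358.9 and 435.1 on the others (202087_s_at). The samples labelled Fry clone held 43.2% of the parental mean, a log2 difference of -1.18 (SE 0.10). No other probe set names CTSL, and this one is of a type (_s_at) that can bind several transcripts. CTSD, the main aspartic protease of lysosomes, read 928.7, 1157.2 and 861.1 against 620.6, 576.4 and 601.0 (200766_at). The groups did not overlap, the second stood at 61.0% of the first, and the log2 difference was -0.69 (SE 0.12).

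CTSZ, an exopeptidase also called cathepsin X, showed no separation of the groups. On 210042_s_at it read 1364.9, 1287.9 and 1174.9 on the parental arrays and 1355.7, 1256.1 and 1351.1 on the others, a log2 difference of 0.05 (SE 0.09). On 212562_s_at it read 190 ± 29 (SD, n = 3) and 193 ± 13, a log2 difference of 0.03 (SE 0.12). Readings of the groups overlapped on both probe sets, which are also of the _s_at type.

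CTSB, which cuts inside protein chains as an endopeptidase and also takes dipeptides off their ends, gave different answers by probe set. The brightest (200839_s_at) read 2716.3, 2869.8 and 2750.0 on the parental arrays and 2723.1, 2561.3 and 2985.9 on the others, a log2 difference of -0.01 (SE 0.09). The next (200838_at) read 1717 ± 67.6 (SD, n = 3) and 1656 ± 91.4, a difference of -0.05 (SE 0.09). The groups overlapped on both. On the 3 other CTSB probe sets they did not. 213275_x_at read 1030 ± 98.7 and 641 ± 12.9 (-0.67, SE 0.10). 227961_at read 210 ± 29.0 and 92.9 ± 29.7 (-1.08, SE 0.20), and 213274_s_at 118 ± 1.37 and 93.6 ± 15.2 (-0.30, SE 0.11). CTSB therefore has no single direction here: its brightest probe sets were level and the remaining ones lower. Where the probes lie on the CTSB transcripts was not determined, and those of the types _s_at and _x_at may bind other transcripts.

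**Figure D2:**
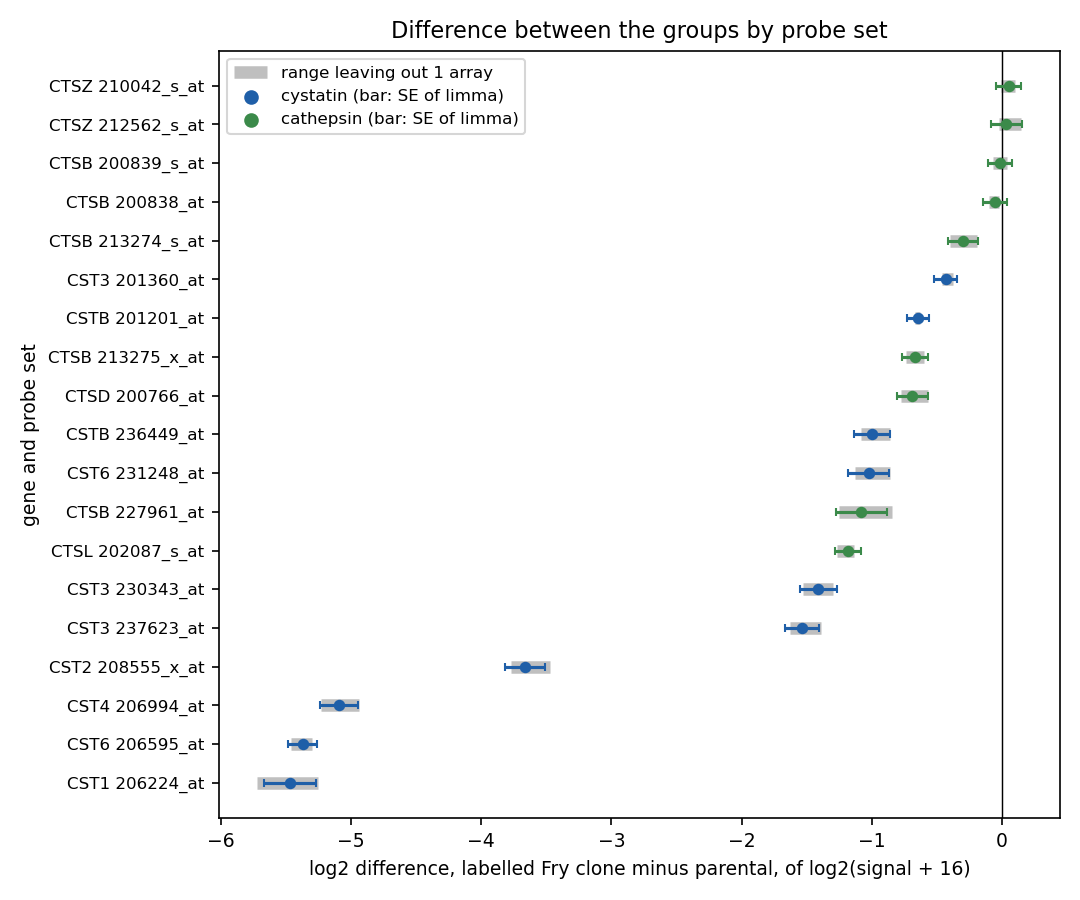
Difference of log2(signal + 16), samples labelled Fry clone minus parental, for the 19 probe sets in order of size (x axis, log2 units), with cystatins in blue and cathepsins in green. Thin bars are the SE of limma, and grey bars the range when each of the 6 arrays is left out in turn. CST1, CST6, CST4 and CST2 lie between -5.47 and -3.66, and CTSZ and the bright CTSB probe sets lie at 0 within their errors.

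The spread within the parental group was described as well, from the same parental values. The salivary-type cystatins varied more between parental arrays than most probe sets of like brightness, here those with a parental mean within a factor of 2. The SD of log2(signal + 16) over the 3 parental arrays was 0.47 for CST1, larger than for 99.6% of 6061 such probe sets. It was 0.29 for CST4 (larger than 97.3% of 6296) and 0.33 for CST2 (96.4% of 7685). In each of these genes the second parental array was the highest and the third the lowest. The CST2 probe set can bind related transcripts, so its spread and order may repeat those of CST1 or CST4. CTSD had the same order of arrays, with an SD of 0.22 (larger than 94.3% of 5256). So did CSTB (201201_at and 236449_at) and CTSB on 200838_at and 227961_at, so the order was not particular to the genes that varied most. CST6 had its lowest reading on the second array and its highest on the third. CST3, CTSL, CTSZ and the other CTSB probe sets had other orders. CTSL (SD 0.04, larger than 13.5% of 5522) and CSTB (0.03, 16.6% of 2358) varied little. These are descriptions of 3 arrays, which the series describes as differing in passage, and the passage of each is not given in the sources used here.

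By the RefSeq gene table (GRCh38.p14, used for names and order only), CST3, CST4, CST1 and CST2 lie side by side on chromosome 20 in an unbroken run of 10 protein-coding cystatin genes. Within this run the brightest CST3 probe set held 73.7% of its parental mean in the samples labelled Fry clone and the dim ones 27.9% and 19.0%, while CST4, CST1 and CST2 next to it came down to or near background. The other cystatins of the run, CSTL1, CST11, CST8, CST9L, CST9 and CST5, read at most 8.2 on any array and did not pass the filter on dim values. Of the 10 named protein-coding genes on each side, 13 were tested. Of these 4 were higher, 7 lower and 2 did not pass (limma, adjusted p under 0.05), with a median log2 difference of -0.43. CST7, a cystatin that lies apart from the run, is among the 7 lower genes and gives this median. It is also counted among the further cathepsins and cystatins below. Over all genes 34.3% were higher and 33.3% lower. THBD, thrombomodulin, fell from 681 ± 73.6 (SD, n = 3) to 0.9 ± 0.95 (adjusted p = 2.39e-10, at least 193-fold lower), and FOXA2, a transcription factor of endoderm, from 110 ± 20 to 0.3 ± 0.17 (adjusted p = 2.42e-08, at least 31-fold lower). PYGB, brain glycogen phosphorylase, rose from 802 ± 60.6 to 1864 ± 158 (adjusted p = 5.51e-06). GGTLC1, a gamma-glutamyltransferase light chain, fell from 34.9 ± 2.98 to 9.87 ± 3.56 (adjusted p = 5.21e-05). The PYGB and GGTLC1 values come from probe sets of the types _s_at and _x_at. Without probe sets of these types 2 neighbours were higher and 5 lower of 9 tested.

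**Figure D3:**
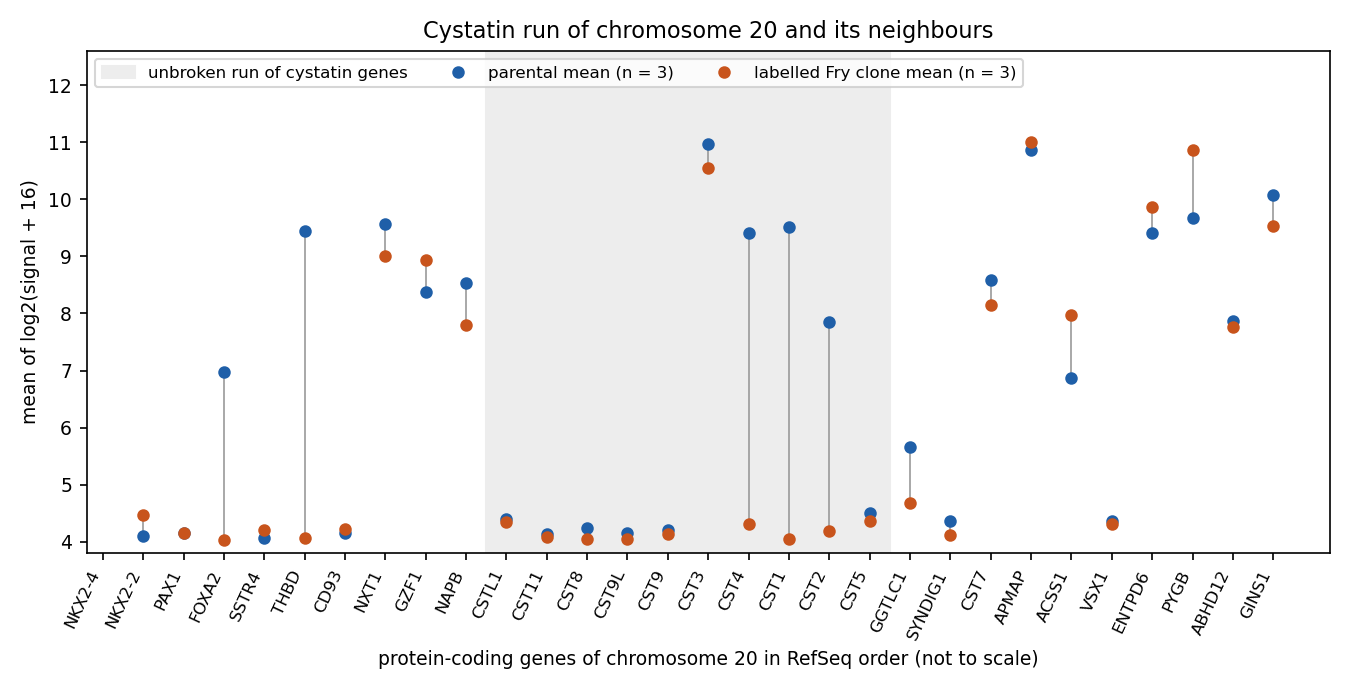
Mean of log2(signal + 16) over 3 arrays of each group for 30 protein-coding genes of chromosome 20 in RefSeq order, not to scale, with the run of 10 cystatin genes shaded. Blue points are parental, orange points labelled Fry clone, and lines join a gene's means. NKX2-4 has no probe set that names it alone. CST4, CST1, CST2, THBD and FOXA2 fall to the bottom of the plot in the samples labelled Fry clone, and CST3 stays near the top.

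The promoters of CST3, CTSD, CTSL and CTSZ are shown because they are the 4 of the 10 genes matched in the RefSeq promoter table (GRCh38.p14). These genes run from lower (CTSL, CTSD, CST3) to level (CTSZ). The genes that differed most, CST1, CST2, CST4 and CST6, are not among them. Each line gives the 250 bases before the annotated start, 5′ to 3′ on the gene's strand. Capitals mark matches, on either strand, to the E-box CACGTG, which reads the same on both strands and is the core of the site bound by TFEB, a regulator of lysosomal genes, to the GC box GGGCGG, and to CCAAT. GC boxes may overlap each other.
CST3, chr20:23637956-23638205, minus strand: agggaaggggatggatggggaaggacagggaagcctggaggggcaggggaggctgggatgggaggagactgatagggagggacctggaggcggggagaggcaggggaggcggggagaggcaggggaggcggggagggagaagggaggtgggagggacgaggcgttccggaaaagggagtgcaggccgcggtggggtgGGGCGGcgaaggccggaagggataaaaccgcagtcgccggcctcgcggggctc
CTSD, chr11:1763928-1764177, minus strand: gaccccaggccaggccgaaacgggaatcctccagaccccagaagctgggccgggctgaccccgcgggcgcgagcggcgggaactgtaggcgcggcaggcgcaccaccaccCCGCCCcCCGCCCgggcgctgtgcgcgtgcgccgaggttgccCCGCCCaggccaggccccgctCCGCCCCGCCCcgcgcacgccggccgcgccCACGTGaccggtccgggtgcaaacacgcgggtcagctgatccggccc
CTSL, chr9:87725869-87726118, plus strand: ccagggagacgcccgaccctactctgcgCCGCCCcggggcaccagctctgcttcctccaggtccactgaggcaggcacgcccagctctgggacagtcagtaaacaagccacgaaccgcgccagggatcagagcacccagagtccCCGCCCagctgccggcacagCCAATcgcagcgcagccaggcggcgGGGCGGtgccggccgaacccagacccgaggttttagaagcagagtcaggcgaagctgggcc
CTSZ, chr20:59007255-59007504, minus strand: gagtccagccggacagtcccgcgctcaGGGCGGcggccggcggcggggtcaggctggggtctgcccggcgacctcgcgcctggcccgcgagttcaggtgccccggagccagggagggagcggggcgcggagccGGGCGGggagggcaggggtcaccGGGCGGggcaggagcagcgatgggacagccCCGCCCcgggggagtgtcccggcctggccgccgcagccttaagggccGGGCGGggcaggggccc
The E-box stood in the CTSD window, 47 bases before the start, and was not found in the windows of CST3, CTSL or CTSZ. Of 35116 promoters of the same length, 6.34% hold it. The GC box occurred 5 times before CTSD, 5 before CTSZ, 3 before CTSL and 1 before CST3, and 42.6% of promoters hold at least 1. CCAAT occurred once before CTSL (32.0% of promoters), and TATAAA in none of the 4 (10.7% of promoters). GC content was 69.2% to 81.2%, against a median of 58.0% over all promoters. Such matches describe the letters and show no binding. TFEB itself read 48.2 ± 12.9 (SD, n = 3) in parental RNA and 39.6 ± 6.42 in the other RNA and did not pass (log2 difference -0.20, adjusted p = 0.27), and its relative TFE3 read 1372 ± 11.8 and 1214 ± 33.1 (-0.18, adjusted p = 0.090). The TFE3 groups did not overlap on that probe set, the brightest, and of its 3 other tested probe sets 1 was lower.

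The rest of both families was read from a list of 23 further cathepsins and cystatins, of which 12 passed the filter. Of these 5 were higher, 6 lower and 1 did not pass (limma, adjusted p under 0.05), against 67.6% of all genes passing in either direction. Without the _x_at and _s_at probe sets 3 were higher and 5 lower of 8 tested. The median log2 difference was -0.05. CSTA, stefin A, the second stefin and mainly a protein of skin and blood cells, read 1.0, 2.2 and 3.6 on the parental arrays and 1310.3, 1140.9 and 1302.7 on those labelled Fry clone. CSTA thus moved the other way from the cystatins described above, with a log2 difference of 6.12 (SE 0.10, adjusted p = 1.22e-10). CTSC, dipeptidyl peptidase 1, which activates serine proteases of immune cells, rose from 1241 ± 151 (SD, n = 3) to 2572 ± 113 (log2 difference 1.05, adjusted p = 2.09e-05). Of its 3 other tested probe sets 2 rose and none fell. CTSE, an aspartic protease like CTSD, rose from 14.2 ± 1.93 to 33.6 ± 2.01 (0.72, adjusted p = 8.99e-05). Its only tested probe set is of the _s_at type, and its parental readings lay near the median probe set (10.4 to 12.1). CTSW, a cathepsin of cytotoxic lymphocytes, fell from 81.2 ± 9.56 to 14.9 ± 3.95 (-1.66, adjusted p = 1.84e-06).

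A further list held genes that tag, carry or mature lysosomal enzymes, lysosomal membrane proteins, and the regulators TFEB and TFE3. Of 15 tested, 6 were higher, 2 lower and 7 did not pass, against 67.6% of all genes passing, with a median log2 difference of 0.16. M6PR, a receptor for the mannose 6-phosphate tag that directs cathepsins to lysosomes, rose from 132 ± 13.4 (SD, n = 3) to 367 ± 28.6 (log2 difference 1.37, adjusted p = 2.24e-06). NAGPA, which uncovers that tag, rose from 53.1 ± 7.63 to 107 ± 8.73 (0.83, adjusted p = 0.00011), and CTNS, the lysosomal cystine transporter, from 134 ± 22.6 to 247 ± 11.4 (0.82, adjusted p = 0.00024). LAMP2, a protein of the lysosomal membrane, rose from 926 ± 82.5 to 1692 ± 61.0 (0.86, adjusted p = 3.82e-05), but of its 3 other tested probe sets 2 were higher and 1 lower. The calls of M6PR, NAGPA and LAMP2 rest on probe sets of a type that can bind several transcripts (_s_at). When such probe sets and the _x_at type were left out, 11 genes of the list were tested, 2 were higher and 2 lower.

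Other acid hydrolases of the lysosome went both ways. Of 18 tested, 11 were higher, 5 lower and 2 did not pass, against 34.3% higher and 33.3% lower over all genes, with a median log2 difference of 0.34. Without the _x_at and _s_at probe sets 6 were higher and 5 lower of 16 tested. ARSA, arylsulfatase A, rose from 0.63 ± 0.31 (SD, n = 3) to 67.4 ± 6.20, at least 19.6-fold above the control level (log2 difference 2.32, adjusted p = 2.28e-08), while its other tested probe set did not pass. GALNS, a sulfatase of keratan sulfate, rose from 188 ± 3.24 to 453 ± 15.8 (1.2, adjusted p = 1.33e-06), while its other tested probe set did not pass. SMPD1, acid sphingomyelinase, rose from 250.5 ± 23.7 to 594 ± 42.8 (1.2, adjusted p = 5.39e-06), as did 1 of its 2 other tested probe sets. The SMPD1 values come from a probe set of the _s_at type. FUCA1, a fucosidase, fell from 563 ± 27.3 to 132 ± 6.0 (-1.97, adjusted p = 5.60e-08), as did its other tested probe set.

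Of 7 inhibitors of cathepsins that are not cystatins, 6 had a probe set that names them alone and 3 passed the filter on dim values. Of these 3, 2 were higher and 1, SERPINB1, did not pass on its brightest probe set (log2 difference -0.11, adjusted p = 0.37), against 67.6% of all genes passing, with a median log2 difference of 4.01. Of the 3 other tested SERPINB1 probe sets 1 was lower. SPOCK1, a testican that binds CTSL, rose from 12.1 ± 1.05 (SD, n = 3) to 1051 ± 34.1 (log2 difference 5.25, adjusted p = 1.22e-10). SERPINA3, a serpin that inhibits the neutrophil protease cathepsin G, read 0.3, 2.2 and 0.3 against 260.0, 348.8 and 183.8, at least 74.5-fold higher (adjusted p = 7.58e-08). SPOCK1 and SERPINA3 did not overlap between the groups, as 67.4% of probe sets did not.

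**Figure D4:**
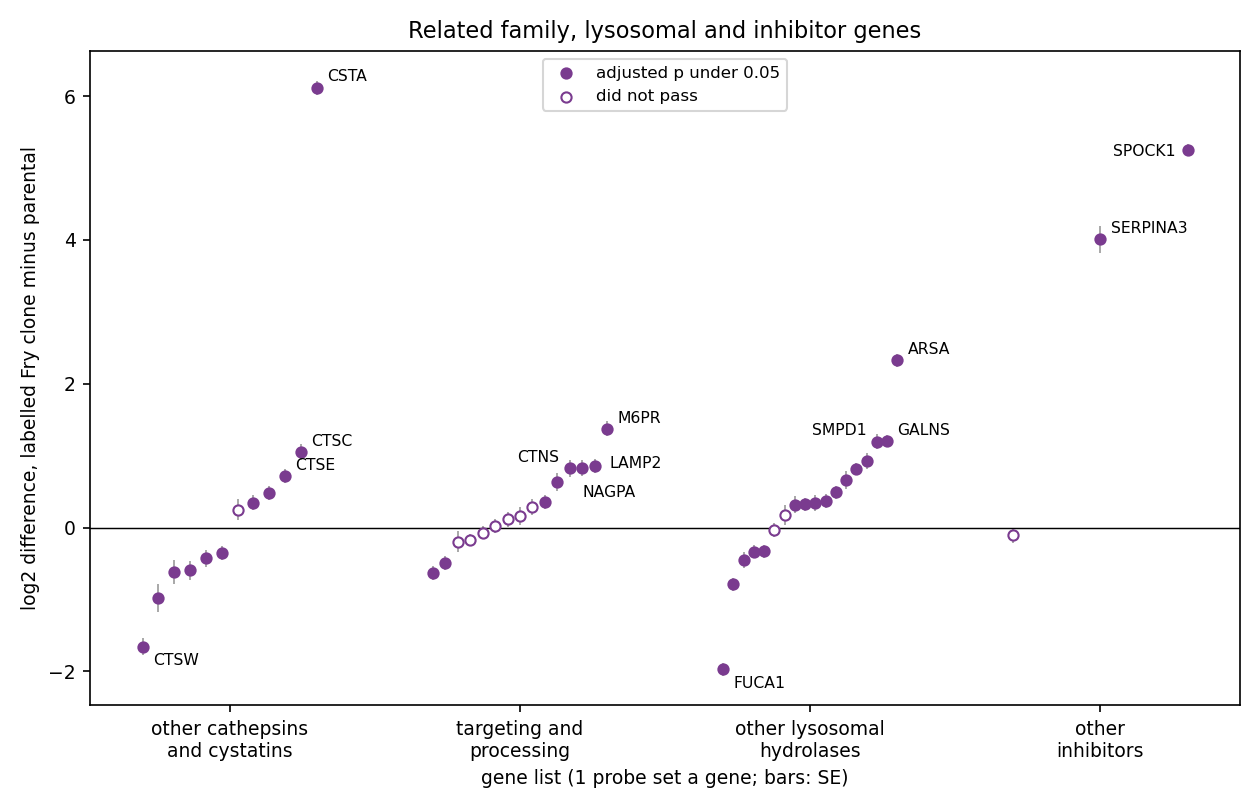
Difference of log2(signal + 16), samples labelled Fry clone minus parental (y axis, log2 units), for the tested genes of 4 lists, each gene by its brightest probe set and ordered by size within its list. Filled points passed at an adjusted p under 0.05 (limma), open points did not, and bars are the SE. CSTA at 6.12 and SPOCK1 at 5.25 stand highest, and FUCA1 at -1.97 and CTSW at -1.66 lowest.

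With a pseudocount of 16 and all arrays, CST1 had the largest difference of the 19 probe sets. CST6 exceeded it with a pseudocount of 64 (-3.74 against -3.59) and without parental replicate 2 (-5.46 against -5.25). The tested genes nearest to CST1 by Euclidean distance over the 6 values of log2(signal + 16) were LAYN, the hyaluronan receptor layilin (distance 0.46), SERPINB9, an inhibitor of granzyme B (0.52), and TFPI2, a Kunitz-type inhibitor of serine proteases (0.56). LAYN read 676 ± 87.4 (SD, n = 3) in parental RNA and 0.53 ± 0.058 in RNA labelled Fry clone, SERPINB9 606 ± 128 and 0.83 ± 0.45, and TFPI2 595 ± 118 and 0.70 ± 0.56. With 6 arrays in 2 groups, such likeness mostly repeats the difference between the groups.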

How the data were processed

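Total RNA (40 ng a sample, from cultures at 70% confluence) was amplified and biotin-labelled with a NuGEN kit, per the labels' protocols. The deposited values are signal intensities, not logarithms, and come from MAS5 (version not given in the sources used here) per the submitters' processing notes. Every array had a mean of 150.0 after 2% of probe sets were trimmed at each end. Each sample is 1 array, and the 6 arrays limit the precision.

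Symbols came from GEO's platform annotation. Of 54613 probe sets that are not controls, those with a mean signal at or above the 40th percentile (5.87) were fitted as log2(signal + 16) with lmFit and eBayes of limma 3.58.1 (R 4.3.3), over all 6 arrays without covariates. P-values were adjusted by Benjamini-Hochberg over all genes tested, 1 probe set a gene (the brightest naming 1 gene), with a threshold of 0.05. For calls on a gene's other probe sets, and for counts of probe sets called, they were adjusted over all probe sets tested. The background was, per array, the highest of 27 unspiked bacterial control probe sets. A fold is a lower bound where all 3 arrays of a group lay at or below it. Tables were made with Python 3.11.15 and figures with matplotlib 3.10.9.

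The 10 genes, the further lists and the markers were chosen with earlier results of these data known. Named from each further list were up to 4 genes with the smallest p that passed, and from all genes the 3 nearest to the gene with the largest difference. The code of the fit was checked on simulated data in which few probe sets, all from the brighter part, were changed. That check does not cover a contrast with as many calls as here, nor genes at background. Alternatives were the pseudocount, the filter, quantile normalization, the type of probe set, a replicate block and leaving out each array. CDKN2A was added after its values were seen. Arrays of a group shared at most 2.15% identical values, so none was counted as a copy.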

Additional observations from a re-analysis of the deposited data

How the results depend on the processing

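Of the 19 probe sets, 16 had a negative log2 difference under all 11 settings run for them, which reuse the same arrays. The exceptions were both CTSZ probe sets (log2 difference -0.01 to 0.10 and -0.02 to 0.15) and the brightest CTSB probe set (-0.07 to 0.04). The 16 include CTSB 200838_at, whose groups overlapped and whose difference stayed small (-0.0965 to -0.0215). Because the genes were chosen on this contrast, nothing is read from the count of 16. The median log2 difference over the 19 was -0.999, -1.21 with a pseudocount of 1, -0.63 with a pseudocount of 64, and -1.04 to -0.843 when each array was left out. The CST1 difference ran from -8.90 with a pseudocount of 1 to -3.59 with 64, so the size for genes at background is set by the pseudocount and its direction is not. Without probe sets of the types _x_at and _s_at, calls were 13071 of 20844 probe sets tested (20506 of 32771 with them), 4 in the targeting list (8 with them) and 7 among the neighbours of the cystatin run (11 with them), with fewer probe sets to test. Higher calls also fell, from 5 to 3 among the other cathepsins and cystatins and from 11 to 6 among the hydrolases. All other total counts of calls stayed within 1.5 times of those given. Same-numbered samples deviated together with correlations of 0.070, 0.074 and 0.187, so the numbers were not taken as pairs. With the replicate block 9281 genes were called, against 9209, and each list kept its count. Readings near the control level (2.5 to 4.9) have no settled order, which limits CST1, CST2, CST4 and CST6 in the samples labelled Fry clone.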
